A study of Rattus norvegicus with 2 samples.

Results

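Cholecystokinin, substance P, neurotensin and galanin are neuropeptides of the hypothalamus, and this account covers the genes of their precursors and of their receptors. The members were chosen by gene symbol, as a family, with the ratios of both arrays already known, so their values are given as a description. There were 10 members, 4 precursor genes (Cck, Tac1, Nts and Gal) and 6 receptor genes (Cckar, Cckbr, Tacr1, Ntsr1, Ntsr2 and Galr1), of 12092 genes with a value in all. The platform annotation paired 11 probes with 9 of them, all with a value on both arrays, and paired no probe with Cckar, which is not analysed here.

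The animals were male Wistar rats, 21 days old at the start, after weaning. They were kept singly behind screens, and no genetic modification is named in the labels. Tickled rats received a stimulation modelled on rough play, which evokes calls at 50 kHz. Light-touched rats received light touch on the same schedule, and no-stimulus rats received neither. Sessions took place on each weekday over 4 weeks and alternated 15 s without contact with 15 s of contact. Each condition had 4 animals per the labels, which do not say whether their RNA was pooled or whether both arrays held the same tickled RNA. RNA from the hypothalamus of tickled rats, in Cy5, was hybridised against Cy3-labelled RNA of no-stimulus rats on 1 array (the no-stimulus array) and of light-touched rats on another (the light-touch array). There was no replicate array and no dye swap, so no difference below could be tested against variation between animals.

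A value is the ratio the authors deposited for a probe, read as tickled over no stimulus or tickled over light touch. This direction is likely from the dyes but is not stated, and with the opposite numerator each ratio would turn into its inverse. A gene's value is the median log2 ratio of its probes. Probes had a value at 30904 and 30133 of 44290 positions on the no-stimulus and light-touch arrays, and the median ratio was 1 on both. Signal levels were not used here, so how strongly a gene was expressed is not known. Within an array, probes for a common gene had an SD of 0.18 log2 units on both arrays, or 1.13-fold, over 4354 and 4226 genes with 2 or more probes. Of 22 transcription factors and related genes of hypothalamic neurons, 17 had a value against no stimulus and 15 against light touch. As 30.2% and 32.0% of all probes were empty on these arrays, such counts cannot check the tissue.

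The 4 peptides are cut from larger precursors, stored in dense core granules and released to act on G protein-coupled receptors. Cholecystokinin limits meal size and is also made in large amounts by neurons of the cortex, hippocampus and thalamus. Tac1 encodes substance P and neurokinin A, which act on tachykinin receptors. Neurotensin and galanin are made by several hypothalamic cell groups and act on feeding, body temperature, sleep and pituitary hormone release. Cholecystokinin, tachykinin and neurotensin receptors mostly raise cell calcium through Gq proteins, whereas the galanin receptor Galr1 inhibits cells through Gi proteins.

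Cck was the member farthest from 1, and it lay on opposite sides of 1 on the 2 arrays. Its ratio was 1.94 against no stimulus, where 41 of 11881 genes were higher. Its ratio was 0.51 against light touch, where 26 of 11745 genes were lower. The tickled hypothalamus thus gave more Cck signal than the no-stimulus one and less than the light-touched one, by 0.96 and -0.97 log2 units. The value comes from 1 probe, so no spread between probes exists for it. In RNA of whole tissue, a change in the number of cells that make a transcript and a change in RNA per cell cannot be told apart.

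Nts, the neurotensin precursor, was the lowest member against no stimulus. Its 2 probes gave ratios of 0.70 and 0.69 on that array, with a gene value of 0.695, and 69 of 11881 genes were lower. Against light touch the same probes gave 1.08 and 1.06. The probes thus differed by far less than the usual spread between probes of a gene. Nts lay well below 1 on the no-stimulus array and near 1 on the light-touch array.

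Against no stimulus the other precursors lay closer to 1 than Nts, and against light touch Gal lay farther from it. Tac1, with 1 probe, had a ratio of 0.87 against no stimulus and 1.03 against light touch. Gal, with 1 probe, had a ratio of 1.03 against no stimulus and 1.36 against light touch, where 315 genes were higher. On the light-touch array Gal and Cck were thus on opposite sides of 1.

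**Figure D1:**
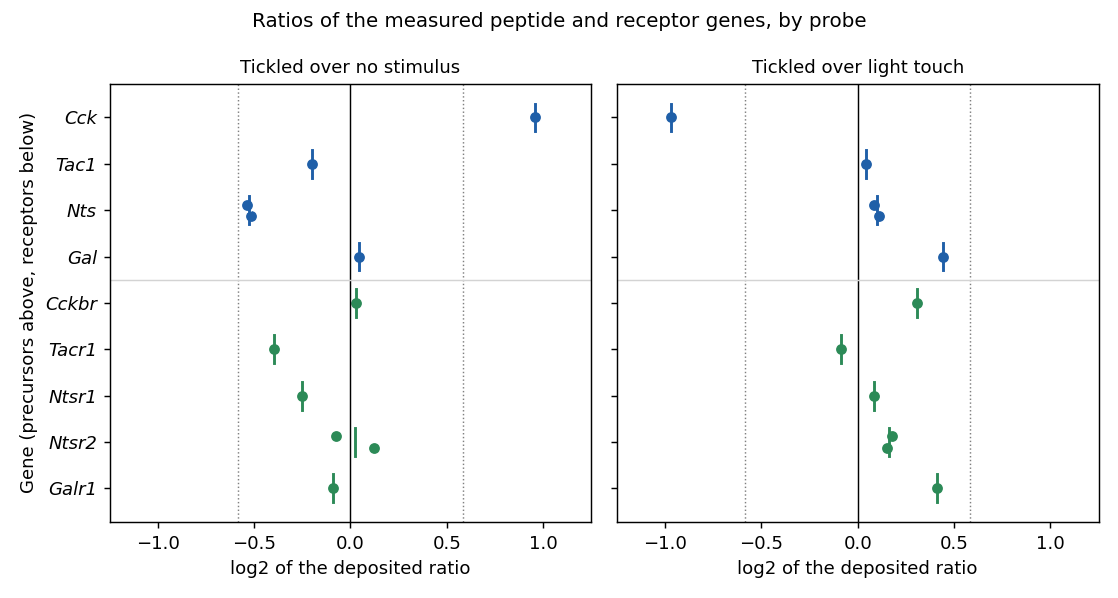
Log2 of the deposited ratio for the 11 probes of the 9 measured genes, tickled over no stimulus at left and tickled over light touch at right. Points are probes, short bars the median of a gene, blue the precursors, green the receptors, and dotted lines mark 1.5-fold. Cck stands at 0.96 and -0.97, while all other genes lie inside the dotted lines on both arrays.

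For the 3 precursors that the RefSeq promoter table of GRCr8 holds, the 250 bases before the table's start site are printed below, 5′ to 3′ on the gene's strand, to show the core promoter of each peptide gene. Cck and Cckar are not in that table, which holds 8 of the 10 members. The Tac1 window is at chr4:36645333-36645582, plus strand, the Nts window at chr7:39460889-39461138, minus strand and the Gal window at chr1:210084573-210084822, minus strand. Capitals mark TATA words (TATAAA or TATATA), the core TGACG of the cyclic AMP response element, and the AP-1 word TGANTCA, each searched on both strands. The array data measure transcripts and do not show binding at these bases.
Tac1: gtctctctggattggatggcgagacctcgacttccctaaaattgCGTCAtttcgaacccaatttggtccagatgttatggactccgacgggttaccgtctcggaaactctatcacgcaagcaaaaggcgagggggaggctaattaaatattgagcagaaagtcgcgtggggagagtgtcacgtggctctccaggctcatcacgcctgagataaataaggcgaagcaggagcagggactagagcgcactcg
Nts: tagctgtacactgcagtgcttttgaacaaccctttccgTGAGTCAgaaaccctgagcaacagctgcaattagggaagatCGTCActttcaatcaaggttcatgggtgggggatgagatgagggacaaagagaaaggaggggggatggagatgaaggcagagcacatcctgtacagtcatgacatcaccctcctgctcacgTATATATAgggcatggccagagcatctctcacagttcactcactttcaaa
Gal: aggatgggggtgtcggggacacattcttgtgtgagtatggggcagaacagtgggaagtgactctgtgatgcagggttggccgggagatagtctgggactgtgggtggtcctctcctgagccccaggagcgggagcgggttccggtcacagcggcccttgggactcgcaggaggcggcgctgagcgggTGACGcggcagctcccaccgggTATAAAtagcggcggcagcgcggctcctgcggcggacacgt

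TATA words began 50 and 48 bases before the start in Nts, overlapping each other, and 41 bases before it in Gal. The Tac1 window had no TATA word. The TGACG core, in either orientation, began 206 bases before the start in Tac1, 171 in Nts and 63 in Gal, and Nts also held an AP-1 word at 212. Among all 33469 promoters of the table, 16.1% held a TATA word, 18.2% the TGACG core and 6.34% the AP-1 word in this window. Among the 8 members in the table, 3 held a TATA word (Tacr1, Nts and Gal), 5 the TGACG core (these and Tac1 and Ntsr1) and 1 the AP-1 word.

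None of the 5 measured receptor genes reached 1.5-fold on either array. Tacr1, the receptor that substance P prefers, was the lowest of them. Its ratio was 0.76 against no stimulus, where 152 genes were lower, and 0.94 against light touch. It was the only measured member besides Cck with a ratio below 1 against light touch. Ntsr1, the high-affinity neurotensin receptor, had a ratio of 0.84 against no stimulus and 1.06 against light touch. Against no stimulus Tac1, Tacr1, Nts and Ntsr1 lay below 1, as did 45.1% of all genes, while the neurotensin receptor gene Ntsr2 had 1.02. Against light touch Tac1, at 1.03, and Tacr1 lay on different sides of 1.

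Ntsr2, a neurotensin receptor known from neurons and astrocytes, had probes on either side of 1 against no stimulus. They gave 1.09 and 0.95 on that array and 1.11 and 1.13 against light touch. Its log2 value against no stimulus was 0.03, and -0.02 once the local median over probe numbers was subtracted, so it had no settled side. Both of its probes lay in the outermost 20% of probe numbers, and none of the other 9 probes did.

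Cckbr, the main cholecystokinin receptor of the brain, had a ratio of 1.02 against no stimulus and 1.24 against light touch. It therefore did not share the large ratios of its ligand on either array. Galr1 had a ratio of 0.94 against no stimulus and 1.33 against light touch, where 380 genes were higher. The galanin receptor and its ligand Gal, at 1.36, were 0.03 log2 units apart on the light-touch array, and both lay close to 1 on the other.

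Ordered by ratio against no stimulus, the members ran Cck, Gal, Cckbr, Ntsr2, Galr1, Tac1, Ntsr1, Tacr1 and Nts. Against light touch they ran Gal, Galr1, Cckbr, Ntsr2, Nts, Ntsr1, Tac1, Tacr1 and Cck. The gap between Cck and its neighbour was 0.91 log2 units on the first array and 0.88 on the second. No other gap between neighbours was over 0.15, which is less than the SD of 0.18 between probes for a common gene. Neighbours other than Cck therefore cannot be ordered.

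At a ratio 1.5-fold or more from 1 in either direction, 1 of 9 measured members (Cck) was counted on the no-stimulus array, where 1.98% of all genes were. The light-touch array likewise counted 1 of 9 (Cck), beside 2.49% of all genes. At 2-fold the count was 0 of 9 on both arrays, beside 0.421% and 0.57% of all genes, since Cck was just short of it on each. The median log2 ratio of the measured members was -0.09 against no stimulus and 0.10 against light touch, where the median over all genes was 0.01 on both and 51.8% and 51.3% of all genes lay above 1. Without Cck these medians were -0.15 and 0.13, with 3 of 8 genes above 1 against no stimulus and 7 of 8 against light touch. The members were named with these values known, so nothing is read from the counts.

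The tickled RNA is common to both comparisons by condition. Subtracting the log2 ratio of the light-touch array from that of the no-stimulus array gives an indirect value for light touch over no stimulus, which assumes that both arrays carried identical tickled RNA. By this measure Cck was 3.80-fold higher in light-touched than in no-stimulus rats, and 11 of 11534 genes were higher still. The other 8 measured members all lay below 1, from Nts at 0.65 and Galr1 at 0.707 to Ntsr2 at 0.909, with Gal at 0.757. Cck and Nts were 1.5-fold or more from 1, that is 2 of 9, beside 2.33% of all genes, and Cck alone was 2-fold or more from 1, beside 0.668%. Over all genes 48.4% lay below 1.

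**Figure D2:**
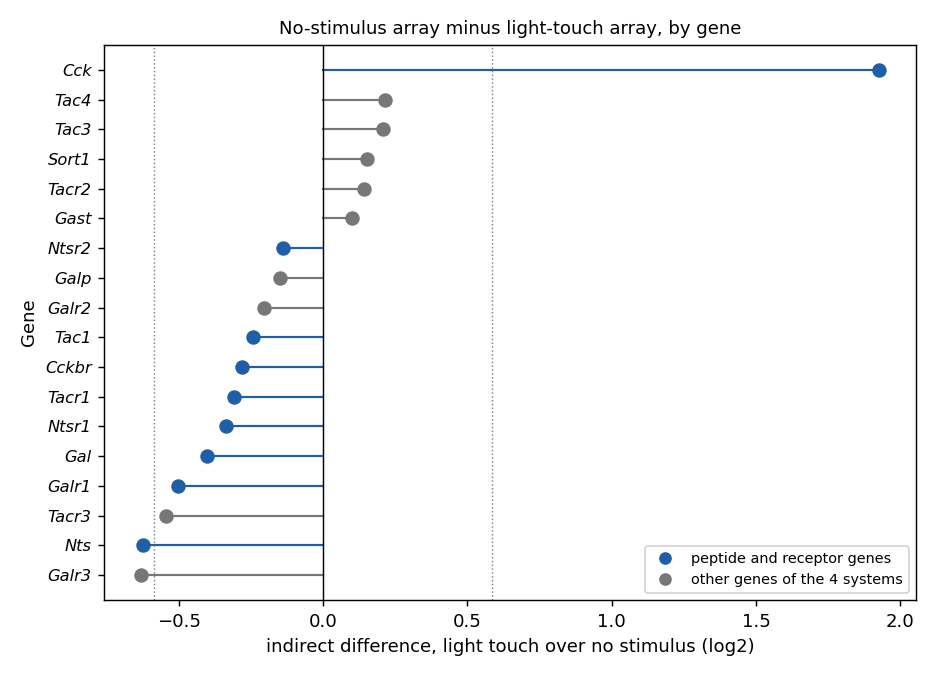
Indirect difference, light touch over no stimulus, in log2 units, for the 9 measured members (blue) and 9 other genes of the same systems (grey). Each line runs from 0 to the gene's value, and dotted lines mark 1.5-fold. Cck stands alone at 1.93, and the other members lie between -0.14 and -0.62.

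Among 11 further ligands and receptors of the 4 systems, 9 had a value on both arrays, and Sorl1 and Spx did not. Galp, the galanin-like peptide of the arcuate nucleus, had a ratio of 1.93 against no stimulus and 2.14 against light touch, from 1 probe, and was the only gene of these 9 past 1.5-fold on either array. Galp binds galanin receptors, yet its ratio on the no-stimulus array lay far from that of Gal, at 1.03. Of the galanin receptors outside the members, Galr3 had 0.95 against no stimulus and 1.47 against light touch, and Galr2 had 0.91 and 1.05. The light-touch value of Galr3 was thus close to the 1.33 of Galr1.

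Tacr3, the receptor of neurokinin B, had a ratio of 0.92 against no stimulus and 1.34 against light touch, and its ligand Tac3 had 0.97 and 0.84. Tac4, another tachykinin gene, had 1.22 and 1.05, and Tacr2, the neurokinin A receptor, 0.96 and 0.87. Gast, whose product gastrin shares the receptor Cckbr with cholecystokinin, had 1.17 against no stimulus and 1.09 against light touch. Unlike Cck, it lay above 1 on both arrays. Sort1, a sorting protein that binds neurotensin, had 1.04 and 0.935.

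Genes that make, destroy or answer to these peptides were measured beside them. None of 14 genes of precursor cleavage, amidation and granules was past 1.5-fold on either array, and the same held for 12 peptidases and 21 signalling genes. With 1.98% and 2.49% of all genes past that limit, counts of 0 on lists of this size say little. The medians against no stimulus and light touch were -0.004 and 0.10 log2 units for the first list, 0.07 and 0.06 for the peptidases, and 0.01 and -0.06 for the signalling genes.

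Among single genes of these lists, Dpp4 and Rgs4 lay about as far from 1 as Nts on 1 array each, and Plcb4 and Pcsk2 lay closer to 1. The peptidase Dpp4 had a ratio of 1.45 against no stimulus and 1.13 against light touch. Rgs4, a brake on G protein signals, had 1.23 and 0.709, the phospholipase Plcb4 1.35 and 0.76, and the convertase Pcsk2 1.27 and 0.82. These last 3 genes lay on the same sides of 1 as Cck. In the indirect difference, light touch over no stimulus, Plcb4 stood at 1.78, Rgs4 at 1.74 and Pcsk2 at 1.56, the only genes of the 3 lists past 1.5-fold there.

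The genes whose pair of ratios was nearest to that of Cck were sought by distance in log2 units over the 2 arrays, among 11522 other named genes. They were Ramp3 at 2.01 and 0.49 against no stimulus and light touch, Ppm1j at 1.80 and 0.50, the thalamic transcription factor Tcf7l2 at 1.78 and 0.53, Nexn at 2.13 and 0.53, and Zic5 at 1.83 and 0.59. Their distances from Cck ran from 0.0771 to 0.226. Only 23 genes lay within 0.5 log2 units of Cck. The same count for Gal was 7185, so its nearest genes (Glod5, Or1e1e, Cfap97, Dlk1 and Slc27a5, all within 0.0414) are not particular to it. Likeness over 2 values says little about any single gene.

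Markers of the thalamus, which borders the hypothalamus, moved with Cck on both arrays. All 11 had a ratio above 1 against no stimulus, where 51.8% of all genes did. The list median was 0.43 log2 units, with a range of ratios of 1.16 to 2.42. Against light touch 10 of 11 lay below 1, where 46.1% of all genes did. The list median there was -0.81, with a range of 0.383 to 1.01. On that array 8 were 1.5-fold or more below 1, beside 109 of 11745 genes. The single marker not below 1 was Calb2, at 1.01. The protein kinase Prkcd had ratios of 2.42 and 0.44 against no stimulus and light touch, the transcription factor Shox2 2.32 and 0.383, and the axon guidance gene Ntng1 1.71 and 0.60. The 3 probes of Tcf7l2 gave 1.78, 1.85 and 1.38 against no stimulus and 0.53, 0.51 and 0.63 against light touch, so the pattern held in each probe. The list was chosen with earlier results of these data known, so its counts are a description. How far the thalamic markers and the Cck ratio have a common source was not tested.

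Other regions gave less uniform values. Of 9 measured cortical and hippocampal markers, Slc17a7 alone had ratios like those of Cck, at 1.64 against no stimulus and 0.309 against light touch, and the list medians were 0.06 and -0.04 log2 units. Of 5 measured habenular markers, Chrna3 stood at 3.99 and 0.18, from 1 probe in the outermost 20% of probe numbers, and the list medians were 0.01 and -0.74. Against light touch 3 of these 5 were 1.5-fold or more below 1, namely Chrna3, Htr5b at 0.28 and Chrnb4 at 0.60. The remaining markers, Lmo3 at 1.12 and Wif1 at 1.2, lay above 1 there. Only Chrnb4 was read by a probe outside the outermost 20%, so the habenular medians rest mostly on outer probes. Against no stimulus Htr5b and Chrnb4 had 1.09 and 1.01. Neuron markers had medians of -0.01 and -0.13 and oligodendrocyte markers 0.03 and -0.14. On these 2 lists no gene reached 1.5-fold on either array. Astrocyte markers had medians of 0.08 on both arrays.

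Markers of other nearby tissues held some genes far from 1, which their medians do not show. Among 7 measured pituitary markers, the hormone subunit genes Tshb and Cga had ratios of 9.08 and 7.18 against no stimulus, the 2 highest of all genes on that array, and 1.08 and 0.833 against light touch. The choroid plexus gene Ttr had 0.08 against no stimulus, the lowest of all genes, and 0.39 against light touch. Of 7 pineal markers measured against light touch, 5 were past 1.5-fold, beside 2.49% of all genes. Neurod1 at 0.21, Tph1 at 0.372 and Otx2 at 0.609 lay below 1, and Bsx at 2.12 and Crx at 1.72 above it. Bsx and Crx were each read by 1 probe, which lay outside the middle 80% of probe numbers. Within that middle 80%, 5 pineal markers were measured against light touch, with a median of -0.716 log2 units. Of these, 3 were past 1.5-fold, all below 1. Of 9 midbrain monoamine markers 4 were past 1.5-fold against light touch, beside the same 2.49% of all genes. The highest was the dopamine transporter gene Slc6a3, at 2.47, which had 0.89 against no stimulus. In this list 8 genes lay above 1 against light touch, among them Pitx3 at only 1.09, and Nr4a2 lay below it at 0.69. The list medians against no stimulus and light touch were 0.18 and 0.11 log2 units for pituitary, -0.31 and -0.11 for choroid plexus, 0.07 and 0.08 for pineal and 0.03 and 0.50 for midbrain markers. The part of these tissues in the members' ratios was not tested.

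Hypothalamic lists differed from Cck on the light-touch array. Of the transcription factors and related genes of hypothalamic neurons, 14 of 15 measured there had a ratio above 1, with a median of 0.42 log2 units. On the no-stimulus array 13 of 17 had, with a median of 0.14. Over all genes 51.3% lay above 1 against light touch and 51.8% against no stimulus. Other hypothalamic peptide genes had a ratio above 1 in 22 of 26 against light touch and in 15 of 24 against no stimulus, with medians of 0.30 and 0.19. Gal, Galr1 and Cckbr, at 1.36, 1.33 and 1.24 against light touch, lay near the 1.34 and 1.23 at the centre of these 2 lists. Ntsr2, Nts, Ntsr1, Tac1 and Tacr1, at 1.12, 1.07, 1.06, 1.03 and 0.94, lay below both centres, as did Cck at 0.51.

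Among these other peptide genes, some had ratios like those of the members. Against no stimulus Gnrh1 stood at 0.38, Avp at 0.508 and Oxt at 0.67, on the side of Nts at 0.695, and against light touch they stood at 0.91, 1.11 and 1.12. These genes encode gonadotropin-releasing hormone, vasopressin and oxytocin. Vip, the gene of vasoactive intestinal peptide, lay on the same sides of 1 as Cck, at 2.24 against no stimulus and 0.91 against light touch. Genes of the feeding circuit of the arcuate nucleus lay above 1 on both arrays, with Pomc at 1.62 and 2.13, Agrp at 1.35 and 1.80 and Cartpt at 1.32 and 1.94.

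The low values of Nts, Tacr1, Ntsr1 and Tac1 against no stimulus stood beside low values of genes of inhibitory neurons. Of 8 such genes 7 had a ratio below 1 on that array, with a median of -0.31 log2 units, where 45.1% of all genes lay below 1. The exception was Pvalb, the gene of the calcium-binding protein parvalbumin, at 1.41. The list median was 0.10 against light touch. Lhx6, a transcription factor of interneurons, stood at 0.50 against no stimulus and 0.85 against light touch, and it is also counted in the next list. Markers of striatum and septum had a ratio below 1 in 10 of 12 against no stimulus and in 9 of 12 against light touch, with medians of -0.36 and -0.27. Whether these lists and the 4 members share a source was not tested.

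**Figure D3:**
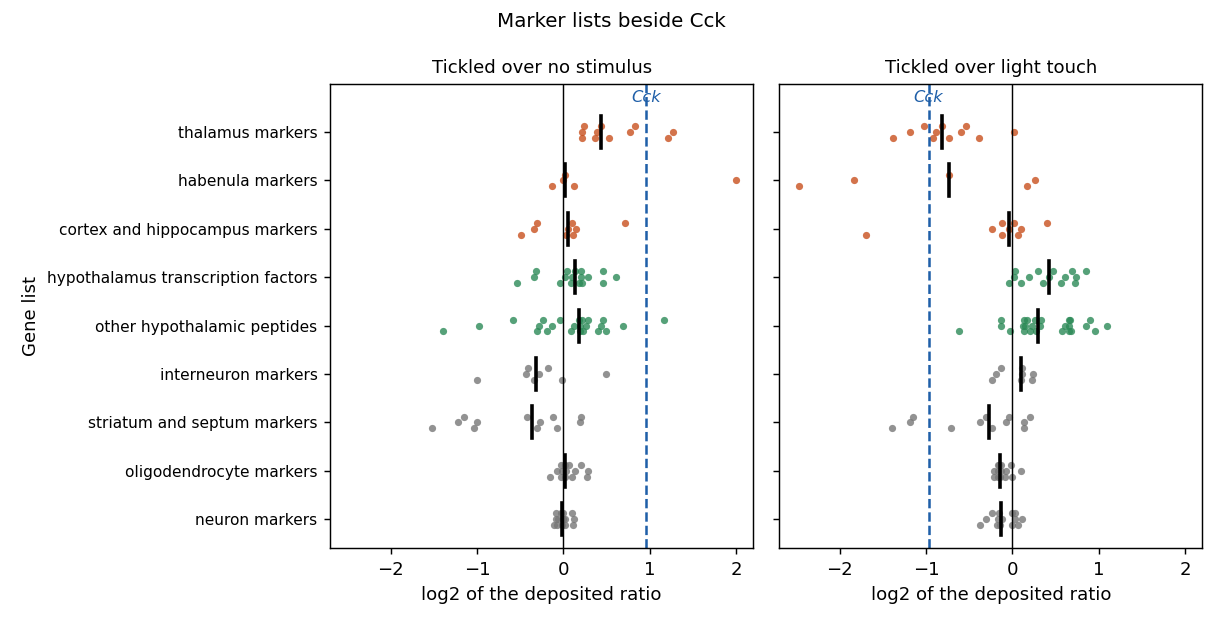
Log2 of the deposited ratio for the genes of 9 lists, tickled over no stimulus at left and tickled over light touch at right. Points are genes, black bars the list medians, and the dashed blue line is the value of Cck. The thalamus markers lie above 0 at left and, but for Calb2 at 1.01, below 0 at right, on the side of Cck both times.

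**Figure D4:**
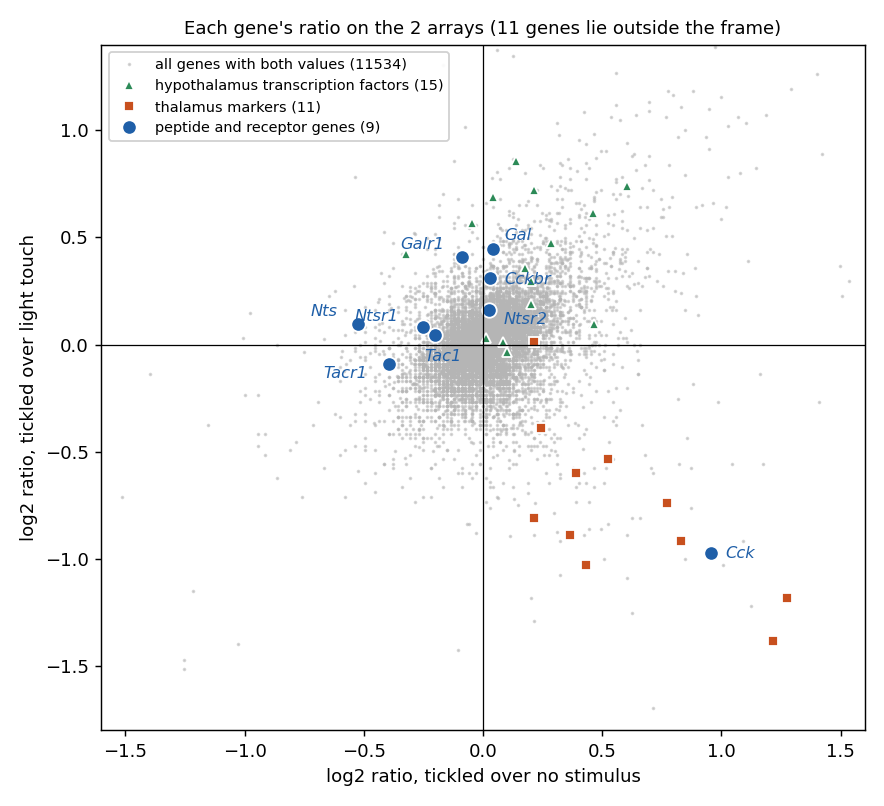
Log2 ratio against no stimulus (horizontal) and against light touch (vertical) for the 11534 genes with both values, of which 11 lie outside the frame. Blue circles are the 9 measured peptide and receptor genes, orange squares the 11 thalamus markers, green triangles the 15 hypothalamic transcription factors and related genes. Cck lies at lower right among the thalamus markers, and the other members lie at centre and left.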

How the data were processed

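Hypothalamus RNA was measured on 2 two-colour arrays, 1 per comparison. Total RNA (500 ng) was amplified to aminoallyl cRNA, per the labels' protocols, before dye coupling. The authors deposited a linear ratio per probe and array, with 2 decimals and centred on 1. The background correction, the normalization and the reason why probes are empty were not given in the sources used here. Probes were named from the platform annotation, updated through Entrez identifiers of the RefSeq GRCr8 table; 23535 of 44290 probes had 1 symbol, 48 had several and 20707 none. Log2 ratios were summarised per gene as the median over probes with Python 3.11.15, pandas 2.3.3 and numpy 2.4.6. Gene summary and call counts were tested on simulated data. No test between conditions was possible and no p-value was computed.

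The members and gene lists were chosen with earlier results of these data known. Genes outside the members were named by rule. The rule took all measured genes of the same peptide systems, genes past 1.5-fold (or else the farthest) in each list, and the 5 genes nearest to the member with the largest indirect difference and to the member with the largest mean; only those a result turned on are given. Calb2, Pvalb, Plcb4, Rgs4 and Pcsk2, Ntsr2's position and single probes of Tcf7l2 were singled out after their values were seen. Alternatives were the mean over probes, subtraction of the local median over 500 probe numbers, the middle 80% of probe numbers, probes with a value on both arrays, a 2-fold threshold, single probes and the turned sign.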

Additional observations from a re-analysis of the deposited data

How the results depend on the processing

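The mean over probes, probes with a value on both arrays, the middle 80% of probe numbers and the local median moved member values by at most 0.084 log2 units, less than the spread between probes. The middle 80% left out Ntsr2. A single probe of Nts or Ntsr2 moved its gene by at most 0.099. The side of 1 changed only for Ntsr2 against no stimulus, under the local median and with 1 probe. Under the same settings the members counted at 1.5-fold stayed at 1, 1 and 2 for the no-stimulus array, the light-touch array and the indirect difference. At 2-fold, with the main values, they were 0, 0 and 1, because Cck lay just short on both arrays and Nts at 0.65. With the local median subtracted, Cck lay at -1.014 log2 units against light touch, just past 2-fold. With the sign turned, as an opposite numerator would require, Cck was at -0.956 log2 units against no stimulus and at 0.971 against light touch, and every other member changed side too. The medians of the members ran from -0.145 to -0.060 against no stimulus and from 0.079 to 0.098 against light touch. No value rests on a replicate array, and signal over background was not available to limit or weight any probe.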
